A study of Homo sapiens with 4 samples.

Results

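A group of 10 genes of RNA polymerase II (Pol II) pausing and elongation was followed in nascent RNA from HCT116 cells with and without acute degradation of KAP1. They were chosen by name, with earlier results of these data known. They are the 4 subunit genes of the negative elongation factor NELF (NELFA, NELFB, NELFCD and NELFE), the 2 genes of DSIF (SUPT4H1 and SUPT5H), SUPT6H, and 3 genes of the super elongation complex (AFF4, ELL and ELL2). All 10 were found among the 19901 protein-coding genes counted, and all 10 were among the 12612 tested genes, those with at least 50 counts in every library. Member counts per library ran from 1791 to 20103.

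Transient transcriptome sequencing (TT-Seq) reads the RNA that cells make while 4-thiouridine (4sU) is briefly present, since Pol II uses this nucleoside and the transcripts that hold it can be purified. HCT116 is a colon cancer line. In all 4 libraries it carried the genotype KAP1_dTAG_CloneD5, a line grown from a single sorted cell in which both alleles of TRIM28, the gene for KAP1, encode a C-terminal degron tag, so every value comes from 1 clone. Cells in serum-containing medium received DMSO, the vehicle, or dTAG-13 at 500 nM, the compound that sends tagged KAP1 to the proteasome, each for 8 h, followed by 500 μM 4sU for 10 min. Each condition had 2 libraries, and each library was made from pooled dishes. The methods call the replicates biological, and p-values measure the spread between these libraries.

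Pol II that has started a transcript often stops a short way downstream of the promoter, held there by NELF together with DSIF. P-TEFb, a kinase, phosphorylates NELF, DSIF and the Pol II tail, after which NELF leaves and DSIF stays with the polymerase as a positive factor. SPT6 and the PAF1 complex then join. The super elongation complex, which holds the scaffold AFF4 and ELL subunits, brings P-TEFb to genes. The comparison here asks whether the genes that encode this machinery were themselves transcribed at another level once KAP1 was degraded.

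Gene counts per library lay between 93105627 and 102314741. TRIM28, which encodes the degraded protein, is no check on the labels because dTAG-13 acts on the protein. Its CPM (counts relative to the scaled library size) were 61.7 and 69.8 with DMSO and 53.5 and 47.9 with dTAG. The log2 fold change of TRIM28, dTAG against DMSO, was -0.37 (adjusted p 0.019, edgeR), a call of lower. With the library trends on GC content and gene length removed it was -0.10 (adjusted p 0.17, edgeR) and not called. The identity of the cells was checked with marker genes. All 7 epithelial markers reached the count minimum, at a summed 1186 to 1223 CPM with DMSO and 1101 to 1204 CPM with dTAG. None of 5 leukocyte markers did, at a summed 0.100 to 0.242 CPM over all 4 libraries, nor did the fibroblast markers COL1A2 and LUM, which had 0 counts. Of 6 fibroblast markers 1 passed, COL1A1, and the list summed to 5.65 to 5.91 CPM with DMSO and 5.20 to 5.54 CPM with dTAG. Of 4 endothelial markers 1 passed, VWF, and the list summed to 2.44 to 2.67 CPM with DMSO and 1.87 to 2.17 CPM with dTAG. A lower level per cell and fewer cells that make an RNA cannot be told apart in such bulk libraries.

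The promoters of 4 members are printed because the fold changes of these genes lay at the 2 ends of the order, SUPT4H1 and NELFB at the low end, and AFF4 and ELL among the highest. The sequences are from RefSeq on GRCh38.p14 and run 5′ to 3′ on the gene's strand, from 250 bases before the annotated start to 50 bases after it. Capitals mark each GC box, searched as GGGCGG on both strands and so also as CCGCCC. SUPT4H1 is chr17:58352152-58352451 on the minus strand, NELFB is chr9:137255077-137255376 on the plus strand, AFF4 is chr5:132963585-132963884 on the minus strand, and ELL is chr19:18522021-18522320 on the minus strand.
SUPT4H1: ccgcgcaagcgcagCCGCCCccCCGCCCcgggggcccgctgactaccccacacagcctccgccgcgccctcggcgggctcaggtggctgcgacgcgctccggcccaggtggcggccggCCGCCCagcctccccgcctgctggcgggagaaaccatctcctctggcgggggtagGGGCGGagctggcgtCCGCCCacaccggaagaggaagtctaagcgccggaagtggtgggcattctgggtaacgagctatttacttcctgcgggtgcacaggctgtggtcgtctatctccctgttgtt
NELFB: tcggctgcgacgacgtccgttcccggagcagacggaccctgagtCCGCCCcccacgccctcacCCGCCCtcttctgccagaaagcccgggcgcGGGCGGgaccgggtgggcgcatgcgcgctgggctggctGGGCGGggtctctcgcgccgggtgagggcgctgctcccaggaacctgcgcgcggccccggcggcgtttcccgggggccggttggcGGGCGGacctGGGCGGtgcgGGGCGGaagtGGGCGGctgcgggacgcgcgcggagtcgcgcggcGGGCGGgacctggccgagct
AFF4: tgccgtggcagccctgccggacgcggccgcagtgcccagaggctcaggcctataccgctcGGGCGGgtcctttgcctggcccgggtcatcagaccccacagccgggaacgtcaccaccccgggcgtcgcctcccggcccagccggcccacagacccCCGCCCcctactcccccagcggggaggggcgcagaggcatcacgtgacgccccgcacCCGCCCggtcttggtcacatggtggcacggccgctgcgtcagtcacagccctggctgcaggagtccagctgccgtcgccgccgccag
ELL: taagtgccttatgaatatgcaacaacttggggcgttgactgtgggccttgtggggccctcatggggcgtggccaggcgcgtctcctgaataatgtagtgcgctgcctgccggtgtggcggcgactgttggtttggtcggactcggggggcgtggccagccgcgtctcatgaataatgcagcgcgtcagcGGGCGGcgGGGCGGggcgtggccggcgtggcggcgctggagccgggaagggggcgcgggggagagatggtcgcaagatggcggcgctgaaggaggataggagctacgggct

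SUPT4H1 has 5 GC boxes in this window, NELFB has 9, AFF4 has 3 and ELL has 2. Their GC content is 71.3%, 79.3%, 74.7% and 67.0%, all above the median of all promoters in the table, 58.7%. RefSeq promoters were matched for 9 of the 10 members, all but ELL2. A GC box occurs in 8 of those 9, all but NELFA, and in 45.0% of 35116 promoters. The letters CGGAAG, a core that ETS factors read, were searched on both strands and occur in 6 of the 9 members and in 19.5% of all promoters. They are found in the NELFA, NELFB, NELFCD, NELFE, SUPT4H1 and SUPT6H windows. Of 4 other motifs searched on both strands none was found in the 9 members. TATAAA occurs in 11.5% of all promoters, the letters CCAAT in 34.6%, the CRE letters TGACGTCA in 1.85% and the letters TGANTCA, read by AP-1, in 7.71%. These are matches of letters and not measured binding sites, and GGGCGG and CGGAAG can share bases, as they do in NELFB.

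Nascent levels of the members spanned a 10.7-fold range in DMSO-treated cells. Levels are compared per length, as CPM per kilobase (kb) of the interval in which reads were counted, introns included. SUPT4H1, the small subunit of DSIF, was highest at 7.07 ± 0.405 (SD, n = 2) CPM per kb. NELFCD followed at 4.53 ± 0.0507. NELFE at 2.95 ± 0.384 and SUPT6H at 2.95 ± 0.0893 came next, and their DMSO libraries overlapped. These 4 genes stood well above the median tested gene, at 1.06 CPM per kb.

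AFF4 at 2.17 ± 0.0665 (SD, n = 2) CPM per kb and SUPT5H at 2.14 ± 0.107 overlapped with each other, as did NELFB at 1.81 ± 0.0921 and ELL at 1.79 ± 0.184. NELFA was at 1.05 ± 0.0186, close to the median gene. ELL2 was lowest at 0.658 ± 0.0503, at the 36.3 percentile of tested genes, whereas SUPT4H1 stood at the 94.0 percentile. The DMSO values of neighbours in this order overlapped in 3 of 9 pairs. With dTAG the ends of the order were the same, with SUPT4H1 at 5.97 ± 0.242 and ELL2 at 0.751 ± 0.0592 CPM per kb.

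The subunits of a complex were not transcribed at a common level. Within NELF the mean ran from 1.05 CPM per kb for NELFA to 4.53 for NELFCD, and within DSIF it was 7.07 for SUPT4H1 against 2.14 for SUPT5H. Part of the order rests on the length used. The counted interval of NELFA starts 32929 bases upstream of its RefSeq start, and that of SUPT5H starts 9427 bases upstream. Per kb of the RefSeq gene, NELFA was at 2.37 and SUPT5H at 2.79 CPM. Per kb of exon, which does not suit nascent RNA with its introns, ELL led at 28.9 CPM, followed by SUPT4H1 at 26.9, and ELL2 remained lowest at 7.13.

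**Figure D1:**
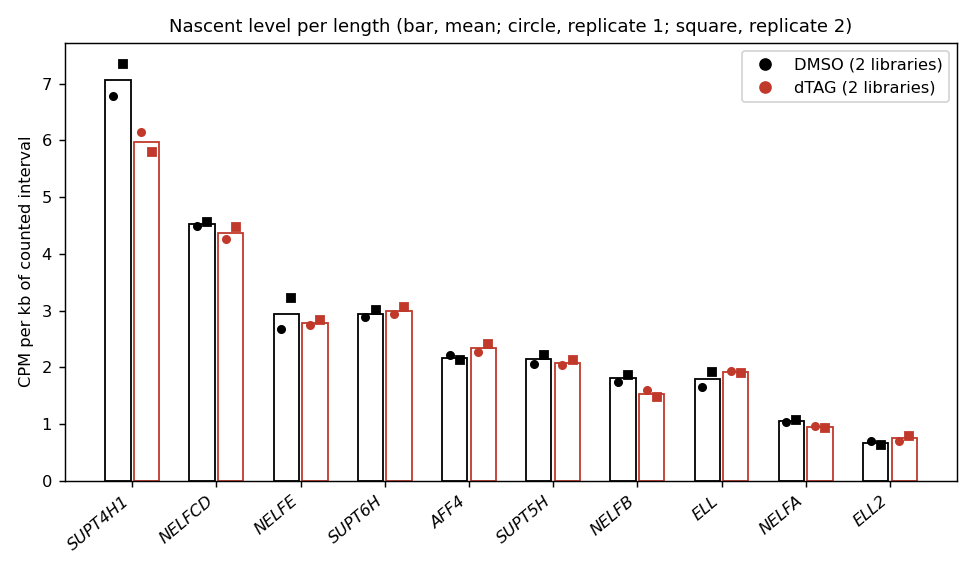
Nascent level of each member, in CPM per kb of counted interval, with bars for the mean of 2 libraries and points for single libraries, DMSO in black and dTAG in red. SUPT4H1 was highest at 7.07 and ELL2 lowest at 0.658 CPM per kb with DMSO, and the distance between genes exceeded the distance between conditions for the same gene at both ends.

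After KAP1 degradation none of the 10 members passed the test at an adjusted p under 0.05, by the quasi-likelihood test of edgeR, with p-values adjusted by the Benjamini-Hochberg method over all tested genes. Over all tested genes 3.44% were called higher and 3.66% lower. That split, 434 higher and 461 lower, became 255 and 869 with upper-quartile scaling. DESeq2 called 0 members too, and 2 members, NELFB and SUPT4H1, had an unadjusted p under 0.05 in edgeR, as did 3355 of all 12612 tested genes. The log2 fold changes ran from -0.24 for SUPT4H1 to 0.19 for ELL2. In the edgeR fit on TMM-scaled counts, all 10 of their 95% intervals lay inside a 1.5-fold change, 0.58 on the log2 scale. The median was -0.047, beside -0.015 over all tested genes.

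In 4 members both dTAG libraries lay below both DMSO libraries, in 2 they lay above, and in 4 the groups overlapped. Over all tested genes 30.7% lay below and 28.1% above. The 4 NELF genes and both DSIF genes had log2 fold changes below 0, while SUPT6H and all 3 genes of the super elongation complex had values above 0. These signs depend on the scaling. With the library trends on GC content and gene length removed, NELFCD, NELFE and SUPT5H lay above 0 and AFF4 below it. With library sizes set to the totals of the ERCC spike-in RNAs, all 10 lay above 0, and so did the median of all tested genes, at 0.63. The members then ran from 0.41 for SUPT4H1 (standard error 0.55) to 0.83 for ELL2 (standard error 0.56). The 1.5-fold bound did not hold there.

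**Figure D2:**
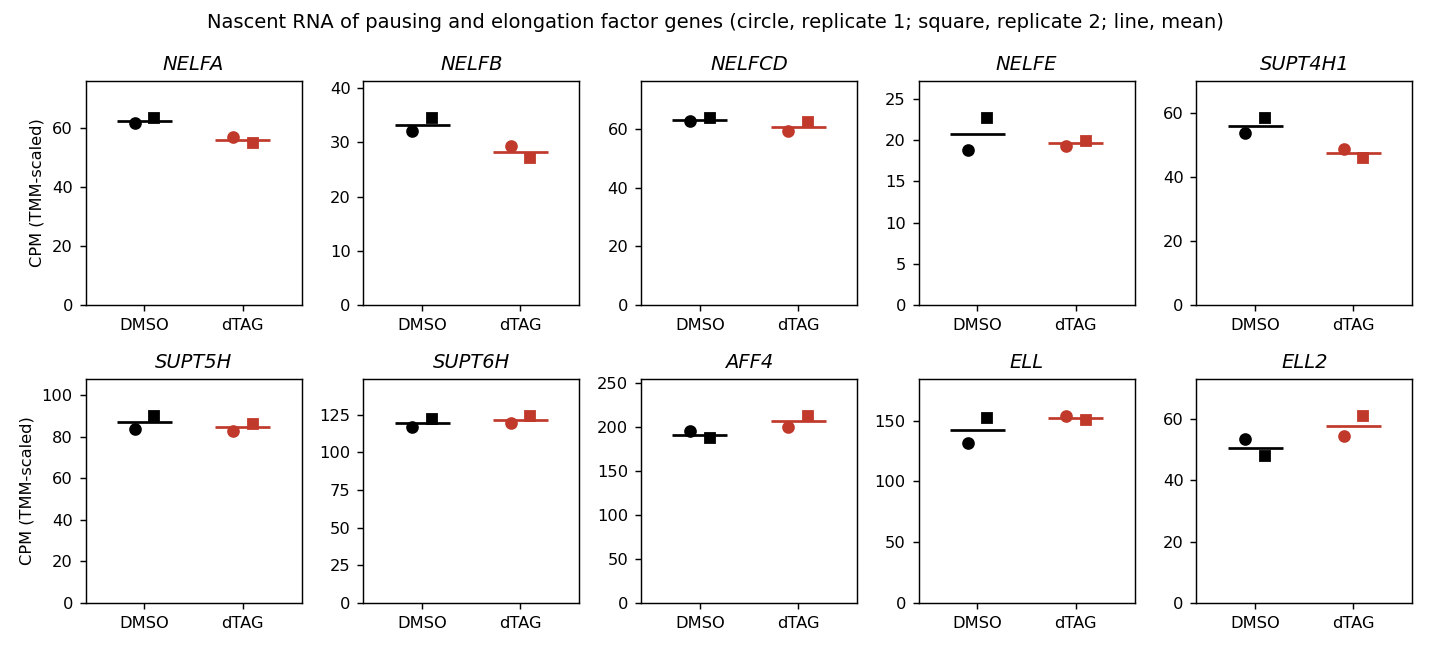
CPM of each member by library, on axes that start at 0, with circles for replicate 1, squares for replicate 2 and lines for the mean of each condition. NELFA, NELFB, NELFCD and SUPT4H1 had both dTAG libraries below both DMSO libraries, AFF4 and ELL2 had both above, and the other 4 genes overlapped.

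NELFA (ENSG00000185049.14, chr4:1982713-2041903, minus strand, hg38) encodes a NELF subunit that contacts Pol II. It was at 61.5 and 63.1 CPM with DMSO and at 56.7 and 54.8 CPM with dTAG. Both dTAG libraries were lower, and the log2 fold change was -0.16 (SE 0.085, 95% interval -0.34 to 0.016), with an adjusted p of 0.23 from edgeR. Without DMSO replicate 1 it was called lower, at -0.18 with an adjusted p of 0.044 from edgeR, in a fit that called 21.4% of all tested genes lower. Each fit that leaves out a library takes its spread from the pair of the other condition and assumes that the lone library varies alike.

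NELFB (ENSG00000188986.6, chr9:137255172-137273546, plus strand), also known as COBRA1, lies in the core of the complex. Its CPM were 32.0 and 34.4 with DMSO and 29.4 and 27.2 with dTAG. No dTAG library reached the DMSO range, and the log2 fold change was -0.23 (SE 0.10, 95% interval -0.44 to -0.024), 0.851 times the DMSO level. The unadjusted p was 0.031 and the adjusted p 0.15 in edgeR's test. NELFB has the most GC-rich interval of the 10 members, at 56.6%, and with the GC and length trends removed its log2 fold change was -0.023 (adjusted p 0.85, edgeR). Without DMSO replicate 1 it was called lower, at -0.28 with an adjusted p of 0.0075 from edgeR, where 21.4% of all tested genes were.

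NELFCD (ENSG00000101158.13, chr20:58981207-58995133, plus strand) encodes the NELF-C and NELF-D proteins, which differ in where translation starts. It was at 62.6 and 63.6 CPM with DMSO and at 59.3 and 62.2 CPM with dTAG. The dTAG libraries were lower by a small margin, and the log2 fold change of -0.054 (SE 0.085, 95% interval -0.23 to 0.12) had an adjusted p of 0.70 in edgeR's test.

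NELFE (ENSG00000204356.13, chr6:31952086-31959110, minus strand) encodes the RNA-binding subunit. It had the fewest counts of the members, at 18.8 and 22.6 CPM with DMSO and 19.3 and 19.8 CPM with dTAG. The dTAG values lay between the DMSO values. Its log2 fold change was -0.080 with the widest standard error of the 10, 0.12, and a 95% interval of -0.32 to 0.16 (adjusted p 0.68, edgeR). It reversed to 0.058 without DMSO replicate 2. The first 32 bases of its counted interval overlap SKIC2 on the other strand, an RNA helicase gene with a log2 fold change of -0.21 (adjusted p 0.29, edgeR).

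SUPT4H1 (ENSG00000213246.6, chr17:58345174-58353093, minus strand) encodes SPT4, the small DSIF subunit. Its CPM were 53.7 and 58.2 with DMSO and 48.7 and 45.9 with dTAG. Both dTAG libraries were lower, with a gap to the DMSO libraries wider than that within either condition. This was the lowest fold change of the members, with a log2 value of -0.24 (SE 0.089, 95% interval -0.43 to -0.056), 0.845 times the DMSO level, an unadjusted p of 0.013 and an adjusted p of 0.094 in edgeR's test.

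The call on SUPT4H1 depended on the setting. With the GC and length trends removed it was called lower at a log2 fold change of -0.16 (SE 0.052, adjusted p 0.044, edgeR), where 7.46% of all tested genes were. With upper-quartile scaling it was -0.32 (adjusted p 0.040, edgeR), where 6.89% were called lower. Without DMSO replicate 1 it was -0.30 (adjusted p 0.00084, edgeR), where 21.4% were. With the ERCC factor as a covariate it was -0.13 (adjusted p 0.40, edgeR). The 5′ end of its counted interval lies inside the 3′ end of RNF43 on the same strand, over 595 bases. That interval starts 892 bases upstream of the RefSeq start of SUPT4H1, and the RefSeq gene does not reach RNF43. RNF43, a ubiquitin ligase gene that restrains Wnt signaling, was at 135 and 131 CPM with DMSO and at 115 and 118 CPM with dTAG, a log2 fold change of -0.19 (adjusted p 0.15) that became -0.25 (adjusted p 0.00098, edgeR) with the trends removed. The part of RNF43 reads in the SUPT4H1 values was not tested.

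SUPT5H (ENSG00000196235.13, chr19:39436155-39476670, plus strand) encodes SPT5, the large DSIF subunit and a substrate of P-TEFb. It was at 83.7 and 89.9 CPM with DMSO and at 82.6 and 86.2 CPM with dTAG. The groups overlapped, and the log2 fold change was -0.040 (SE 0.084, 95% interval -0.21 to 0.13, adjusted p 0.78, edgeR). It reversed to 0.011 without DMSO replicate 2.

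SUPT6H (ENSG00000109111.14, chr17:28662090-28702684, plus strand) encodes SPT6, a histone chaperone that travels with Pol II. Its CPM were 117 and 122 with DMSO and 119 and 124 with dTAG. The 2 ranges overlapped over most of their width, and the log2 fold change of 0.026 (SE 0.083, 95% interval -0.15 to 0.20, adjusted p 0.86, edgeR) was the nearest to 0 of the members. It was -0.0045 without DMSO replicate 1 and -0.0024 without dTAG replicate 2. Its counted interval shares 100 bases at the 5′ end with SDF2 on the other strand, which had a log2 fold change of 0.063 (adjusted p 0.71, edgeR).

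AFF4 (ENSG00000072364.12, chr5:132875378-132963634, minus strand) encodes the scaffold of the super elongation complex and had the highest counts of the members. It was at 195 and 187 CPM with DMSO and at 201 and 213 CPM with dTAG. Both dTAG libraries were higher, with a log2 fold change of 0.11 (SE 0.088, 95% interval -0.071 to 0.29, adjusted p 0.42, edgeR). With the GC and length trends removed the value was -0.0084 (adjusted p 0.91, edgeR).

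ELL (ENSG00000105656.12, chr19:18442662-18522127, minus strand) encodes an elongation factor that suppresses pausing of Pol II. Its CPM were 132 and 152 with DMSO and 154 and 150 with dTAG. DMSO replicate 1 stood apart from the other 3 libraries, and the log2 fold change was 0.098 (SE 0.090, 95% interval -0.088 to 0.28, adjusted p 0.50, edgeR). Without DMSO replicate 1 it was -0.0038, and without DMSO replicate 2 it was 0.21 with an adjusted p of 0.033 from edgeR, where 6.41% of all tested genes were called higher.

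With the GC and length trends removed, the CPM of ELL were 134 and 136 with DMSO and 158 and 162 with dTAG, and the groups no longer overlapped. ELL was then called higher, at a log2 fold change of 0.24 (SE 0.039, 95% interval 0.16 to 0.33, adjusted p 0.0012, edgeR), where 10.6% of all tested genes were. With the ERCC factor as a covariate it was also called, at 0.27 (adjusted p 0.00082, edgeR), where 6.31% were. That factor was 0.80 in DMSO replicate 2, with 25165 ERCC counts, and -0.047 in DMSO replicate 1, with 14798. It was -0.20 and -0.56 in dTAG replicates 1 and 2, with 13870 and 9551 ERCC counts. How far the factor repeats the GC trend was not tested. With the length trend alone removed the log2 fold change of ELL was 0.025 (adjusted p 0.87, edgeR). ELL combines a GC-rich interval, 55.5%, with a long one, 79.5 kb.

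ELL2 (ENSG00000118985.15, chr5:95885097-95962071, minus strand) encodes a paralog of ELL, and it is also among the genes that the study lists as induced by serum. It was at 53.4 and 47.9 CPM with DMSO and at 54.6 and 61.0 CPM with dTAG. Both dTAG libraries were higher, dTAG replicate 1 only just, and the log2 fold change was 0.19 (SE 0.092, 95% interval -0.0020 to 0.38), 1.14 times the DMSO level, with an unadjusted p of 0.052 and an adjusted p of 0.19 in edgeR's test. ELL2 has the lowest GC content of the members, 38.2%, and the value was 0.039 (adjusted p 0.66, edgeR) with the GC and length trends removed. Without DMSO replicate 1 it was called higher, at 0.27 with an adjusted p of 0.0028 from edgeR, where 22.2% of all tested genes were.

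**Figure D3:**
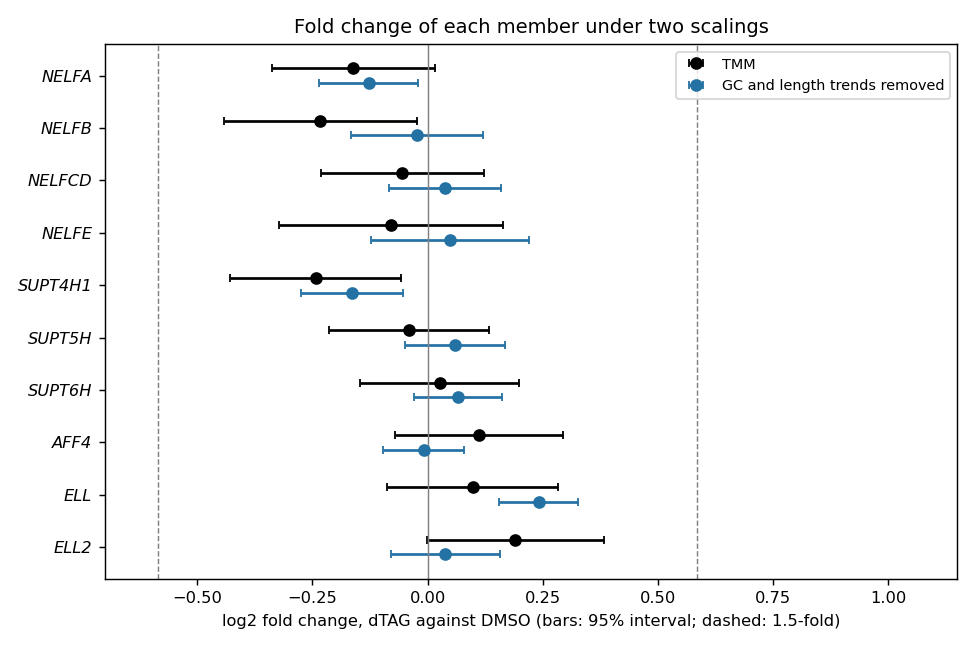
Log2 fold change of each member, dTAG against DMSO, with 95% intervals, from TMM-scaled counts in black and with the GC and length trends removed in blue. All 10 TMM intervals lie inside the dashed lines at a 1.5-fold change, and of these 2 settings ELL and SUPT4H1 pass the test in the one with the trends removed.

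Over all tested genes the log2 fold change was lower at higher GC content (Spearman's rho -0.56) and higher in longer genes (rho 0.42), a description across genes that share the same 4 libraries. The 2 replicates of a condition also differed along GC content, with rho 0.75 for DMSO replicate 2 against replicate 1 and -0.44 for dTAG replicate 2 against replicate 1. ELL2 and AFF4, the members with the lowest GC content at 38.2% and 40.4%, had the 2 highest fold changes. NELFB, with the highest at 56.6%, had the second lowest. Other members did not follow that order, since SUPT4H1, at 47.0%, had the lowest fold change and ELL, at 55.5%, the third highest.

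From replicate 1 to replicate 2 of DMSO, 8 members had a higher value and 2 a lower one, and the lower ones were AFF4 at -0.063 and ELL2 at -0.16 on the log2 scale. NELFE at 0.27 and ELL at 0.21 differed most. For ELL, NELFE, SUPT5H and SUPT6H this distance between control libraries exceeded the fold change between conditions. Removing the trends left standard errors of 0.039 to 0.079 in place of 0.083 to 0.12, and a median log2 fold change of the members of 0.038, beside -0.0015 over all tested genes. The cause of the trends was not tested.

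**Figure D4:**
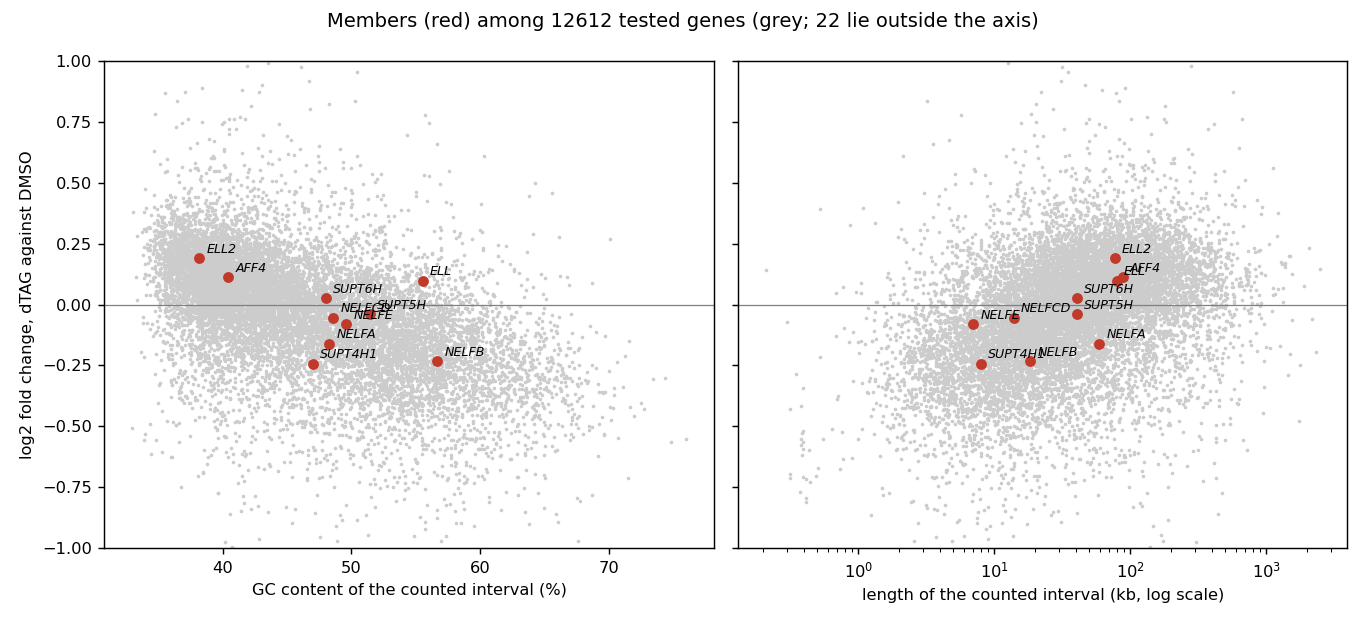
Log2 fold change, dTAG against DMSO, of the 10 members in red and of 12612 tested genes in grey against GC content in percent and length in kb (log scale) of the counted interval, with 22 genes outside the axis. Fold changes are lower at higher GC content and higher in longer genes, and ELL2, AFF4 and NELFB lie along the GC gradient while ELL lies above it.

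Of 51 other genes of Pol II elongation, 49 were tested, and AFF3 and ELL3 were under the count minimum. None was called higher, beside 3.44% of all tested genes, and 4 were called lower, beside 3.66%. DESeq2 gave the same counts, 0 higher and 4 lower, and 18 of the 49 had an unadjusted p under 0.05 in edgeR's test, as did 3355 of all 12612. Their median log2 fold change was -0.043. The list was drawn up by function, as partners and substrates of the 10 members.

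MLLT3, a YEATS-domain reader in the super elongation complex also known as AF9, fell. It was at 45.8 and 39.0 CPM with DMSO and at 32.0 and 33.4 CPM with dTAG, a log2 fold change of -0.38 (SE 0.10, adjusted p 0.028, edgeR). Of the 4 called genes it was the one still called with the GC and length trends removed, at -0.52. Its paralog MLLT1 was at 0.040 in the first fit and was called higher, at 0.19, with the trends removed. Of 8 tested genes among the other ELL, AFF and little elongation complex partners, MLLT3 was the 1 called, and ZC3H8, of the little elongation complex, had the highest value at 0.29 (adjusted p 0.066, edgeR).

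MEPCE, the enzyme that caps 7SK RNA, fell as well, from 31.4 and 40.9 CPM with DMSO to 27.9 and 26.4 CPM with dTAG. Its log2 fold change was -0.41 (SE 0.11, adjusted p 0.034, edgeR). With the GC and length trends removed it was -0.14 and not called. It was the 1 gene called of 7 for P-TEFb and the 7SK particle, which holds P-TEFb inactive. HEXIM2, a P-TEFb inhibitor, was at -0.39 (adjusted p 0.12, edgeR), and the kinase gene CDK9 was at -0.23 (adjusted p 0.16, edgeR).

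Of 13 Pol II subunit genes 2 fell. POLR2L went from 33.2 and 38.6 CPM with DMSO to 29.4 and 26.1 CPM with dTAG, a log2 fold change of -0.37 (SE 0.11, adjusted p 0.039, edgeR). POLR2J had 11.9 and 13.5 CPM with DMSO and 9.23 and 9.21 CPM with dTAG, a log2 fold change of -0.46 (SE 0.13, adjusted p 0.045, edgeR), and is uncertain because near-identical copies of the gene can share its reads. Neither was called with the GC and length trends removed, at -0.073 and -0.24. POLR2A, the catalytic subunit, was at -0.17 (adjusted p 0.23, edgeR). With the ERCC factor as a covariate, an alternative built on the spike-in RNAs that the authors' methods name for normalization, 5 of the 49 genes were called lower, beside 4.17% of all tested genes. They were MLLT3 at -0.57, CTR9 at -0.26, POLR2A at -0.22, AFF1 at -0.20 and CDK12 at -0.19, whereas MEPCE at -0.086, POLR2L at -0.15 and POLR2J at -0.31 were not called. The 4 calls of the first fit were lost without dTAG replicate 1 and without dTAG replicate 2. Those fits hold a single dTAG library and called few of all tested genes. Without DMSO replicate 1 more of the 49 genes were called in both directions, as were more of all tested genes.

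No gene of the other lists was called. The 6 PAF1 complex genes ran from -0.19 for CTR9 (adjusted p 0.16, edgeR) to 0.18 for CDC73 (adjusted p 0.26, edgeR). Among 8 genes of TFIIS, elongin and TFIIF, which help Pol II past arrest or raise its rate, the largest changes were -0.34 for TCEA2 and -0.32 for ELOB (adjusted p 0.16 and 0.064, edgeR). Among 4 histone chaperone and SPT6 partner genes they were 0.20 for IWS1 and 0.10 for SUPT16H. Among CDK12, CDK13 and their cyclin gene CCNK, which act on the Pol II tail, they were -0.18 for CDK12 and 0.14 for CDK13 (adjusted p 0.19 and 0.35, edgeR). With the GC and length trends removed, CTR9 at -0.28, AFF1 at -0.15 and CDK12 at -0.23 were called lower beside MLLT3, and POLR2E at 0.18 was called higher beside MLLT1. These are 4 and 2 of the 49 genes, beside 7.46% and 10.6% of all tested genes.

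**Figure D5:**
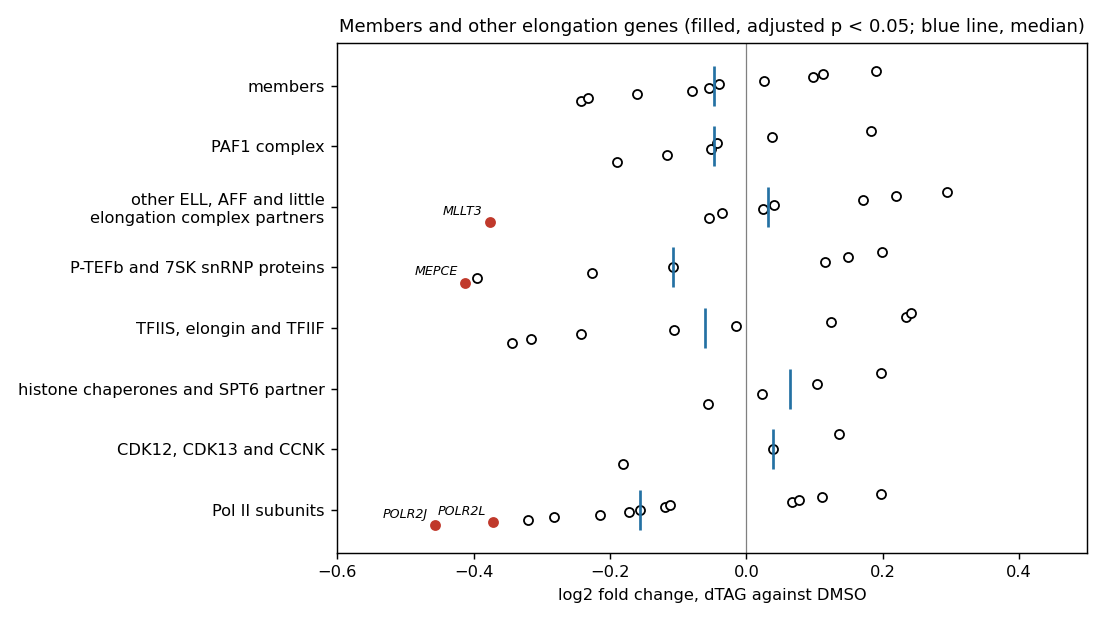
Log2 fold change, dTAG against DMSO, of the 10 members and of 49 other elongation genes by list, with filled red points for an adjusted p under 0.05 in edgeR's test and a blue line at each list's median. None of the members is filled, and the 4 filled genes, MLLT3, MEPCE, POLR2J and POLR2L, are all lower with dTAG.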

How the data were processed

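TT-Seq was performed on HCT116 KAP1-dTAG cells, 2 libraries with DMSO and 2 with dTAG, grouped by the treatment in the labels. The authors used Trim Galore 0.6.4 for trimming, STAR for mapping on hg38, and featureCounts of Subread 1.6.3, which assigned reads to whole gene bodies of 19901 protein-coding genes and to 92 spike-in RNAs (ERCC). The deposited table holds these counts without normalization. Strand setting and treatment of overlapping genes are not given in the sources used here, so overlapping genes and antisense partners may share reads. Members and lists were chosen with earlier results of these data known.

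The 12612 genes that reached 50 counts in every library were scaled by TMM and tested in R 4.3.3 with the quasi-likelihood test of edgeR 4.0.16, two-sided, with Benjamini-Hochberg adjustment over all tested genes and an adjusted p under 0.05 as the call. No replicate block was used, since the methods name none. The correlation of deviations of same-numbered libraries across genes was -0.30. This single value cannot show whether the numbers pair the samples. The authors' methods name spike-in normalization without its function or number of factors. It was therefore an alternative here, written after RUVg with 1 factor from 14 ERCC RNAs. SE is the log2 fold change over the root of F. CPM are counts relative to the TMM-scaled library size. GC content and length are those of the counted interval in hg38, and their trends were removed per library by lowess with a span of 0.3, as offsets.

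Of other elongation genes, each called gene and the 2 largest changes per list were named, and CDK9, POLR2A, ZC3H8 and the genes called with the trends removed or the ERCC factor were named where a sentence needed them, after their values were seen. A gene of these lists is not reported here. Alternatives were DESeq2 1.42.0, upper-quartile and ERCC scaling, the likelihood ratio test, other count filters, blocks, genes overlapping no other gene and leaving out each library, which leaves 1 condition with a single library that is assumed to vary like the other pair. The crossed block, the length trend alone and RefSeq lengths were chosen after seeing the data. Each member had 1791 or more counts in every library. The fit in edgeR estimates the spread of a gene partly from all tested genes, so a standard error is not set by that gene's own libraries alone. NELFCD had a standard error of 0.085, while its DMSO libraries differed by 0.023 on the log2 scale.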

Additional observations from a re-analysis of the deposited data

How the results depend on the processing

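With 2 libraries per condition, calls moved with the scaling and with single libraries. Members called higher numbered 1 (ELL) with the ERCC factor, with the GC and length trends removed and with the replicate block added to that, and 0 to 1 when each library was left out in turn. Members called lower numbered 1 (SUPT4H1) with upper-quartile scaling, with the trends removed and with the block added, and 0 to 3 with a library left out. The replicate block alone called 0 members and 340 of all tested genes (895 without it), and 0 of the other elongation genes. Crossing the numbers, which the correlation of -0.30 prompted, called 3190 genes, 2 members lower (NELFB and SUPT4H1), and 5 other elongation genes higher and 10 lower. Of the other elongation genes, those called higher numbered 2 with the trends removed, 4 with the block added, 1 with the length trend removed, 1 with the likelihood ratio test, 1 with no filter and 0 to 12 with a library left out. Those called lower numbered 8 with upper-quartile scaling, 5 with the ERCC factor (MLLT3 the 1 of them also called without it), 1 among genes overlapping no other gene and 0 to 15 with a library left out. Over all tested genes, 1343 were called higher and 941 lower with the trends removed, 1507 and 1130 with the block added, 796 and 526 with the ERCC factor, 729 and 864 with the likelihood ratio test, 673 and 744 with no filter, and 69 to 5491 in all with a library left out. The setting with genes overlapping no other gene tested 8291 genes, of which 304 were called higher and 338 lower. It left out the members NELFE, SUPT4H1 and SUPT6H. Other elongation genes that overlap a gene were left out too, and how many of the 49 remained was not counted. Its 1 gene called lower, MLLT3, therefore does not show that the other genes lost their calls. Library sizes from ERCC totals called 0 genes of all in edgeR's test, with 229 at an unadjusted p under 0.05 and a median of 0.63.

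That scaling reversed NELFA to 0.49, NELFB to 0.42, NELFCD to 0.60, NELFE to 0.60, SUPT4H1 to 0.41 and SUPT5H to 0.62, all below its median. With the trends removed, NELFCD reversed to 0.038, NELFE to 0.049, SUPT5H to 0.060 and AFF4 to -0.0084, and with the block added to 0.038, 0.051, 0.059 and -0.0082. With the length trend alone removed NELFCD was 0.055 and NELFE 0.098, and with the ERCC factor NELFE was 0.12 and SUPT5H 0.019. With upper-quartile scaling SUPT6H was -0.048. When single libraries were left out, NELFE ran from -0.21 to 0.058, SUPT5H from -0.091 to 0.011, SUPT6H from -0.0045 to 0.058, reversing in 2 of 4 cases (also at -0.0024), and ELL from -0.0038 to 0.21. None of these reversed values passed the test, and the cause was not tested. The 10.7-fold range of DMSO levels was 4.05-fold per kb of exon, 12.1-fold per kb of RefSeq gene and 9.77-fold to 11.8-fold with a DMSO library left out. In all, 130 of 167 member fold changes under alternatives kept direction and call. No member was called in the main fit, so any setting that called few genes kept the call by default. Several settings also refit nearly the same model, so this tally does not measure robustness.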
